A study of Mus musculus with 18 samples.

Results

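Interferon-induced and antigen processing genes were described in pancreatic islets, the clusters of hormone-secreting cells of the pancreas, from obese and lean mice. The 40 genes were listed by name, and a gene was kept where the array gave it a transcript cluster (the unit of probes read as one signal) of its own. By this rule 36 of the 40 genes were measured, among 22180 genes in all, and 34 of the 36 passed the filter on low values and were tested among 15526 genes. Oas1a, Gbp2 and Cd74 appeared only in clusters shared with another gene and Ifi44 in no annotated row, so these 4 were not analysed here, and Mx1 and Nlrc5 were measured but lay below the filter.

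The samples were handpicked islets of C57BL/KsJ db/db mice, which carry a defect of the leptin receptor, of C57BL/6J ob/ob mice, which lack leptin itself, and of age-matched lean control mice of each strain. All came from the colonies of 1 institute and were 6 or 16 weeks old, which gave 8 groups of 2 arrays: lean KsJ, db/db, lean 6J and ob/ob at each age. A separate table held 2 more arrays of 16 weeks, 1 lean KsJ and 1 db/db. The series title names the db/db mice as diabetes-prone and the ob/ob mice as diabetes-resistant, and the comparisons below ask how the islets of each model differ from lean islets at each age, how age changes them, and how the lean strains differ. The sources do not say whether the control mice carry 1 copy of the mutation, nor whether an array stands for 1 animal or a pool, so p-values measure only the spread between these samples.

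Interferons are secreted proteins that bind receptors on the cell surface and, through Janus kinases and the transcription factors of the STAT family, switch on a large set of genes. Type I interferons act mainly through Stat2 and Irf9 at a promoter element called the interferon-stimulated response element, and interferon gamma acts through a STAT dimer at the gamma-activated site. The induced proteins block viral replication, sense foreign nucleic acid, and cut and load peptides for display on major histocompatibility complex molecules, and in islets their increase is a known feature of autoimmune diabetes.

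All values are log2 signals as deposited, so a difference of 1 is a 2-fold difference in signal, and levels are compared only between arrays for the same gene. Beta cell genes were high on every array: the insulin gene Ins2 stood between 11.60 and 12.20 on the 16 arrays, and the mean of the beta cell markers between 10.67 and 11.56. These values do not measure how pure the islets were. Other tissues were also present to different extents. The mean of the acinar markers, digestive enzymes of the exocrine pancreas, ranged from 8.04 to 13.11 and was highest on lean KsJ 16-week replicate 2. The mean of the enterocyte markers, genes of the gut lining, was 10.95 on lean 6J 6-week replicate 2, 9.26 on db/db 16-week replicate 2 and 3.76 to 6.52 on the other arrays. The Y-linked gene Uty was at 7.25 to 7.86 on 5 arrays, both 6-week ob/ob arrays and replicate 1 of lean KsJ at 6 and 16 weeks and of lean 6J at 6 weeks, and at 2.17 to 3.60 on the other 11. Sex was thus not balanced between db/db and lean islets at either age, or between ob/ob and lean islets at 6 weeks. The same holds for the lean strains at 16 weeks and for ob/ob and lean 6J islets with age. Replicate numbers follow the order of the samples and have no meaning across groups. In bulk islets, fewer cells of a type and less RNA per cell cannot be told apart.

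The promoters of the members on which the results turn are shown, since the response element itself can be read in them. RefSeq promoters of 300 bases (build GRCm38.p6, from 250 before to 50 after the transcript start) were found for 29 of the 40 listed genes. Capitals mark matches to the core letters of the response element, GAAANNGAAA, or of the gamma-activated site, TTCNNNGAA, on either strand. Ifih1 and Tapbp are the members called in a comparison. Bst2, Ifit1, Rsad2, Irf7 and Oasl2 were chosen after their values were seen.
Ifih1, chr2:62646206-62646505, strand minus: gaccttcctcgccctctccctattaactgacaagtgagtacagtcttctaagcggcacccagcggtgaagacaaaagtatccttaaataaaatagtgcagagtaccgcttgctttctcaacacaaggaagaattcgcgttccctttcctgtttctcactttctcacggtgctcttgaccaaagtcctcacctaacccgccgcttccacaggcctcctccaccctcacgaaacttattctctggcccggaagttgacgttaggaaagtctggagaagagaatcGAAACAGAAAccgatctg
Tapbp, chr17:33919228-33919527, strand plus: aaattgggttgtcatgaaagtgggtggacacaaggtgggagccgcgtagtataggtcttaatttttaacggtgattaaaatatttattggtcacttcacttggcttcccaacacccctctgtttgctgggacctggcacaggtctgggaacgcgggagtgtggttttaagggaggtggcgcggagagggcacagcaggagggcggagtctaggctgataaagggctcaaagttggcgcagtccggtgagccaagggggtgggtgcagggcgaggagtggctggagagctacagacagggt
Bst2, chr8:71537423-71537722, strand minus: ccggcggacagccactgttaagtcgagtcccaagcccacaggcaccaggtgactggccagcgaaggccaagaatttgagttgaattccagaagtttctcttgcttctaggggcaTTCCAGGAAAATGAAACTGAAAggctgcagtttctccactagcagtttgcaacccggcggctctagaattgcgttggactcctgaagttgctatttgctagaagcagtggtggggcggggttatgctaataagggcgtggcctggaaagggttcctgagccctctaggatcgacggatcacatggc
Ifit1, chr19:34640639-34640938, strand plus: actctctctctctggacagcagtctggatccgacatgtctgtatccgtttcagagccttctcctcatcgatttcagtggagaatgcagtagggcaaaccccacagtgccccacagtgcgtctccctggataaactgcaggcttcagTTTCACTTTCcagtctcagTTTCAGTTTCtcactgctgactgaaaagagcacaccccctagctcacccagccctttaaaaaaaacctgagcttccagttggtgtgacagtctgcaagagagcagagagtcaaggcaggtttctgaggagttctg
Rsad2, chr12:26456403-26456702, strand minus: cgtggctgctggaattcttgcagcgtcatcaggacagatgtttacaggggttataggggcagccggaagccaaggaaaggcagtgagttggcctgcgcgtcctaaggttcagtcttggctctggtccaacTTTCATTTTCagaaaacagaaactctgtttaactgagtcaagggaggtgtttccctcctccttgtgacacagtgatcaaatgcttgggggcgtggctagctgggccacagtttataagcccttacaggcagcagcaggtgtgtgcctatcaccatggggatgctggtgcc
Irf7, chr7:141266375-141266674, strand minus: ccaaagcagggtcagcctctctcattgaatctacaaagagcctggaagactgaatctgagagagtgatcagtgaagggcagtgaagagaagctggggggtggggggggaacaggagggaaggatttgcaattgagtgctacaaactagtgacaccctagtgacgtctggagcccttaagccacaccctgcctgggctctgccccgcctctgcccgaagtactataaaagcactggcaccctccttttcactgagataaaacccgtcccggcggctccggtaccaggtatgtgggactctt
Oasl2, chr5:114896684-114896983, strand plus: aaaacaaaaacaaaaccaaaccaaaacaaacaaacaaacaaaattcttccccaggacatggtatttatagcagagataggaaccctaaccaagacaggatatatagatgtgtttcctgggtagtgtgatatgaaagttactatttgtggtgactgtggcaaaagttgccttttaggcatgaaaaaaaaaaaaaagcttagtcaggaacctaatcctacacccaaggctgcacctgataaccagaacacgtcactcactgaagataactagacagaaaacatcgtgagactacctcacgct
In the Ifih1 promoter the match lies 32 bases after the transcript start. In Bst2 a gamma-activated site at -136 overlaps the first of 2 overlapping response elements at -130 and -124. Ifit1 holds 2 response elements at -104 and -85 and Rsad2 holds 1 at -120, while neither motif matched in the windows of Tapbp, Irf7 and Oasl2. The response element letters were present in a promoter of 14 of the 29 genes (48.3%), against 3.99% of the 27025 genes in the table. The gamma-activated site letters were present in a promoter of 9 of the 29 (31.0%), against 9.55% of genes. Some genes have more than 1 promoter. Counted by promoter rather than by gene, the letters were present in 3.44% and 8.3% of all 32851 promoters. A match is a description of the letters only and shows no binding.

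**Figure D1:**
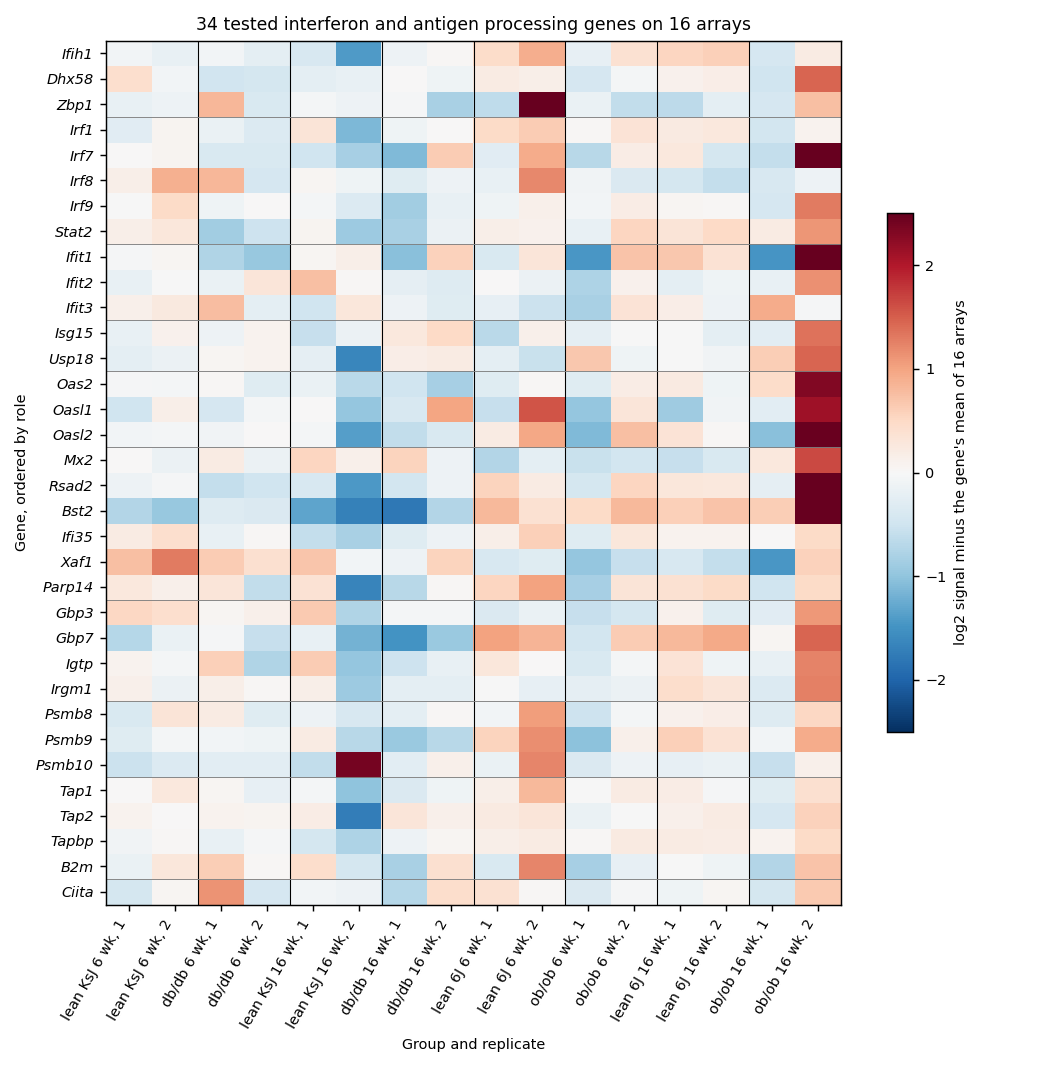
Colours show each gene's log2 signal minus its mean over the 16 arrays of the larger table, for the 34 tested genes in rows by role and the arrays in columns by group and replicate. The colour scale ends at 2.5 in either direction. The last column, ob/ob 16-week replicate 2, is red for most antiviral genes, and lean KsJ 16-week replicate 2 is blue for many genes but red for Psmb10.

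No member passed the test in any of the 4 obese against lean comparisons at a limma adjusted p below 0.05, where the share of all genes called was 5.8% in 16-week db/db islets, 0.0258% in 6-week db/db islets, 0.0708% in 16-week ob/ob islets and 0% in 6-week ob/ob islets. At an unadjusted limma p below 0.05 there were 3 members in 16-week db/db islets (24.5% of all genes), 1 in 6-week db/db islets (8.52%), 3 in 16-week ob/ob islets (16.6%) and 1 in 6-week ob/ob islets (6.15%). At 16 weeks these counts are a smaller share of the 34 members than the share of all genes.

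In 16-week db/db islets the members lay on both sides of lean islets: 18 of 34 were above, with a median log2 difference of 0.07, while 65.7% of all genes were above and their median was 0.18. The all-gene median moved to 0.05 under quantile normalization and to -0.16 under median centring, and 19 and 10 members then lay above. Of the 34, 6 had both db/db arrays above both lean arrays (32.8% of all genes) and 2 had both below (10.4%). The ISG15 system, a ubiquitin-like modifier and its protease, had the highest median of the role groups, 0.92. Usp18, the protease that removes Isg15 and restrains interferon receptor signalling, was at 8.47 and 8.51 on the db/db arrays and at 8.09 and 6.67 on the lean arrays. The difference was 1.11 ± 0.41 (SE, n = 2 arrays per group; limma adjusted p = 0.13), and without lean KsJ 16-week replicate 2 it was 0.40. Isg15 itself was at 4.47 and 4.71 against 3.63 and 4.07, a difference of 0.74 ± 0.43 (adjusted p = 0.316).

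The peptide loading genes followed next in 16-week db/db islets, with a median of 0.42 that was -0.072 without lean KsJ 16-week replicate 2. Tapbp, the tapasin that holds class I molecules at the peptide transporter, was at 8.97 and 9.13 on the db/db arrays and 8.65 and 8.32 on the lean arrays. Its difference of 0.56 ± 0.18 had the lowest adjusted p of any member in this comparison (0.0942). Tap2, a subunit of that transporter, was at 6.15 and 5.97 against 6.02 and 4.11, so the groups overlapped and 1 lean array lay far below the other 3. Ifih1, the cytosolic sensor of long double-stranded RNA also called MDA5, was at 7.10 and 7.26 against 6.83 and 5.82, a difference of 0.86 ± 0.33 (adjusted p = 0.136) that was 0.36 without lean KsJ 16-week replicate 2. Ifit2, one of the IFIT proteins that bind viral RNA, lay the other way, at 3.39 and 3.29 against 4.37 and 3.65. Macrophage markers moved in the same comparison: 15 of 15 were higher in db/db islets and 4 were called, with group arrays averaging 6.18 and 5.80 against 5.11 and 4.76. The stellate and matrix markers were higher for 10 of 10 genes (5 called, median 1.62), the endothelial markers for 9 of 9 (2 called, median 0.69) and the enterocyte markers for 9 of 9 (1 called, median 3.21). Of all genes, 65.7% were higher and 5.8% were called in this comparison. The share higher was 54.6% under quantile normalization and 35.9% under median centring. Whether the marker calls hold under those scalings was not tested, nor was the part of these cell types in the members' differences.

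In 6-week db/db islets 15 of 34 members were above lean islets, with a median of -0.04 against -0.02 for all genes (46.9% above). Arrays did not overlap for 3 members higher in db/db (21.9% of all genes) and 8 lower (27.9%). All 5 transcription factors lay lower, with a median of -0.31. Stat2, the signal transducer particular to type I and III interferon, was at 5.66 and 6.01 on the db/db arrays and 6.68 and 6.81 on the lean arrays, a difference of -0.91 ± 0.38 (adjusted p = 0.573). Dhx58, a regulator of RNA sensing also called LGP2, was at 4.09 and 4.14 against 5.0 and 4.50 (-0.63 ± 0.46, adjusted p = 0.733). At 16 weeks Stat2 differed by -0.07 and Dhx58 by 0.16.

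In 6-week ob/ob islets 27 of 34 members lay below lean 6J islets, with a median of -0.38 while that of all genes was -0.003 and 49.6% of all genes were above. For 11 members both ob/ob arrays lay below both lean arrays (16.8% of all genes), and for 1, Usp18, both lay above (19.9%). All 3 immunoproteasome subunits, which replace the constitutive catalytic subunits and change the peptides cut, lay lower with a median of -0.77, which was -0.21 without lean 6J 6-week replicate 2. Psmb9 was at 4.19 and 5.34 against 5.77 and 6.38, a difference of -1.31 ± 0.43 (adjusted p = 0.791), and Psmb8 was at 6.25 and 6.71 against 6.69 and 7.80. B2m, the light chain of class I molecules, was at 9.88 and 10.51 against 10.32 and 11.94, so the groups overlapped. Zbp1, a sensor of left-handed nucleic acid, was at 3.37 and 2.92 against 2.90 and 6.36, and its difference of -1.48 ± 0.85 turned to 0.25 without lean 6J 6-week replicate 2. That lean array is the one with the enterocyte genes, and without it the median of the 34 members was -0.16.

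In 16-week ob/ob islets 25 of 34 members lay above lean 6J islets, with a median of 0.30 against -0.03 for all genes and 47.5% of all genes above. For 4 members both ob/ob arrays lay above both lean arrays (28.2% of all genes) and for 2 both lay below (33.3%). Mx2, an antiviral dynamin-like GTPase, was at 4.09 and 5.48 against 3.24 and 3.44, a difference of 1.45 ± 0.39 with the lowest adjusted p among the members here (0.125). Oas2, a synthetase of the oligoadenylates that switch on RNase L, was at 4.42 and 6.27 against 4.18 and 3.86 (1.33 ± 0.46, adjusted p = 0.191). Usp18 was at 8.92 and 9.76 against 8.29 and 8.22 (1.09 ± 0.41, adjusted p = 0.229). In these 3 genes every ob/ob array exceeded every lean array, and replicate 2 was the higher ob/ob array each time. Ifih1 lay the other way, at 6.82 and 7.44 against 7.76 and 7.83 (-0.67 ± 0.33, adjusted p = 0.336), as did Irf1, a transcription factor of the interferon gamma response, at 6.12 and 6.66 against 6.79 and 6.82. Acinar markers were higher in ob/ob islets for 10 of 10 genes, with a median of 1.23 and none called, and their part in these values was not tested.

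Usp18 had both obese arrays above both lean arrays in all 4 comparisons, with log2 differences of 0.26 and 1.11 in db/db islets and 0.69 and 1.09 in ob/ob islets at 6 and 16 weeks. None of the 4 passed the test. The 16-week differences were 0.40 without lean KsJ 16-week replicate 2 and 0.67 without ob/ob 16-week replicate 2. Usp18 was singled out after its values were seen. In each single comparison 19.9% to 32.8% of all genes lay wholly above, and the share doing so in all 4 was not counted.

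**Figure D2:**
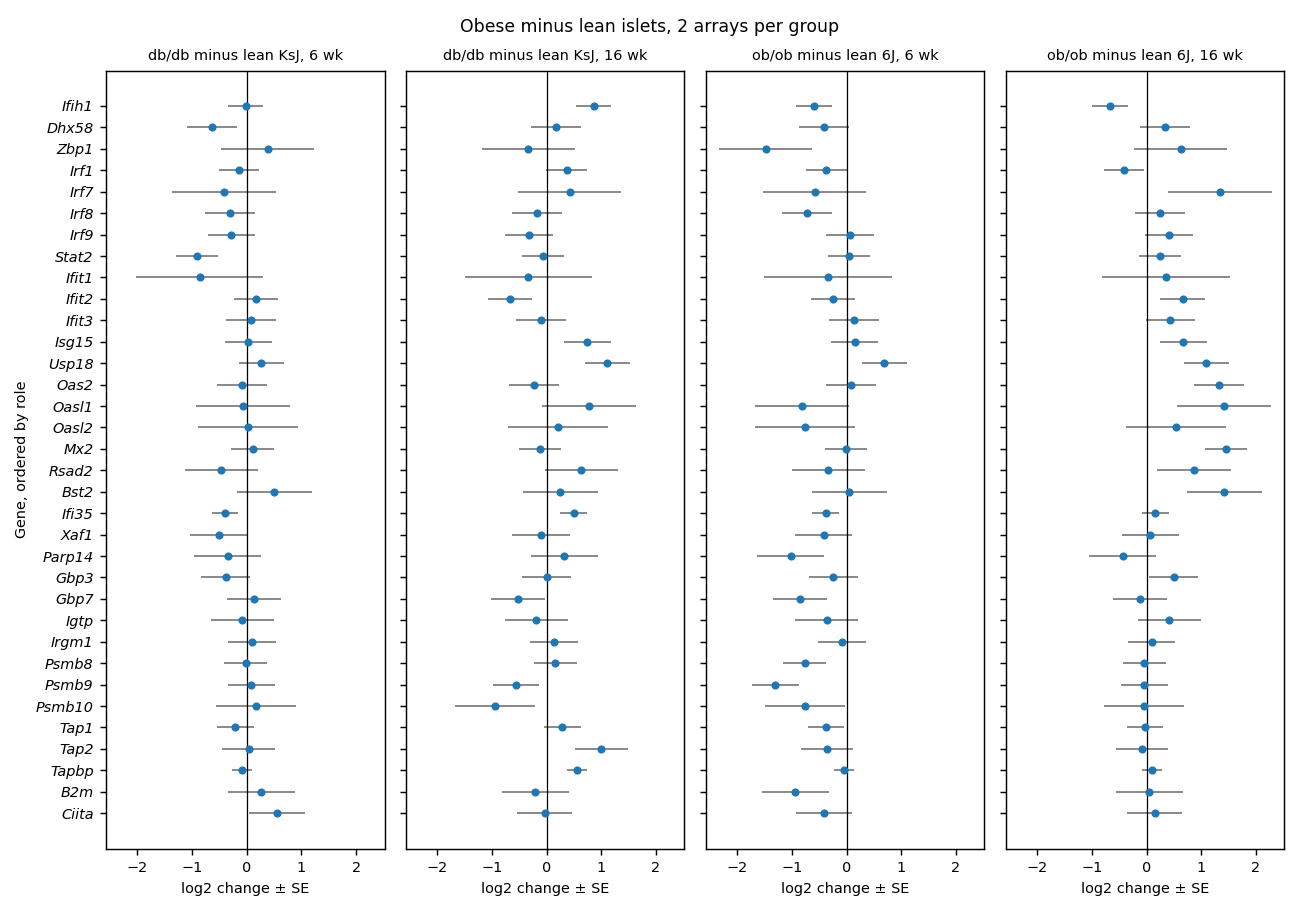
Points give the log2 difference between obese and lean islets for each of the 34 genes, in 1 panel per model and age, and bars give ± 1 standard error from the limma fit with 2 arrays per group. Most bars cross or approach 0; Mx2 and Oas2 lie at 1.45 and 1.33 in the 16-week ob/ob panel and Usp18 at 1.11 and 1.09 in the 16-week panels.

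The positive median of the 16-week ob/ob islets rested on 1 of the 2 arrays. On ob/ob 16-week replicate 2 the mean signal of the 34 members was 6.95, against 5.49 on replicate 1 and 5.12 to 6.25 on the other 14 arrays of the table. Of the 34 members, 33 were higher on replicate 2 than on replicate 1, with a median gap of 1.34 where that of all genes was -0.02. For 21 of the 34 the gap was 1 or more, against 1.32% of all genes (205 genes). Replicate 2 held the highest of the 16 values for 20 of the 34 members, against 5.27% of all genes.

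The antiviral genes had the widest gaps. Ifit1, which binds foreign RNA caps, was at 8.39 on replicate 2 and 3.70 on replicate 1, a gap of 4.69 that ranked 1 of the 15526 genes. Irf7, the master regulator of interferon alpha production, was at 8.83 against 5.12 and ranked 4. Oasl2, an OAS-like protein, was at 8.46 against 4.95 and ranked 5. In these 3 genes replicate 2 was also above every other array of the table. Bst2, the tethering protein tetherin that holds virions at the cell surface, was at 8.78 against 5.87. Rsad2, the radical SAM enzyme viperin, was at 8.27 against 5.55. Ifit1, Bst2 and Rsad2 hold the response element letters shown above, and Irf7 and Oasl2 do not. Oasl1 (gap 2.39), Xaf1 (2.02), Dhx58 (1.97), Oas2 (1.84), Irf9 (1.72) and Isg15 (1.62) followed, and the 4 interferon-inducible GTPases, which attack the vacuoles of intracellular microbes, had gaps of 1.37 to 1.61.

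The immunoproteasome and peptide loading genes had gaps of 0.38 to 1.44 on the same array. Of the 3 immunoproteasome subunits Psmb9 had a gap of 1.0, Psmb8 0.85 and Psmb10 0.70. B2m was at 11.42 against 9.98, and Tap2, Tap1 and Tapbp had gaps of 1.0, 0.69 and 0.38. Ciita, the class II transactivator, was at 4.29 against 3.21. Among the 33 genes higher on replicate 2 the gap was smallest for Irf8, a factor of myeloid and B cells, at 0.27. Ifit3, another IFIT protein, was the 1 member that lay the other way, at 4.61 on replicate 2 and 5.57 on replicate 1. Among the 26 tested members with a promoter in the table, the 12 with response element letters had a median gap of 1.43 (range -0.96 to 4.69), and the 14 without had 0.93 (0.27 to 3.70), so the ranges overlapped.

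Other interferon-stimulated genes of a list that holds no member showed the same array: 31 of 33 were higher on replicate 2, and 9 by 1 or more. Cxcl10, a chemokine gene induced by interferon gamma, was at 8.36 against 3.95 and ranked 2 of all genes. The 6 listed interferon genes that passed the filter averaged 4.15 on replicate 2 and 4.21 on replicate 1. Of the 6, 4 were higher on replicate 2, and Ifnl2 had the largest gap the other way, -1.61. Ifnb1, the interferon beta gene, lay below the filter, at 2.22 on replicate 2 and 1.68 on replicate 1. The interferon receptors and kinases averaged 7.24 on each. Macrophage markers were higher on replicate 2 for 13 of 15 genes, by 1 or more for 2, with means of 5.82 and 5.30. The T and NK cell markers averaged 2.97 and 3.07, the enterocyte markers 4.14 and 4.02 and the acinar markers 9.97 and 10.45. The part of the macrophage markers in the result was not tested. Uty and Xist, the RNA of the inactive X chromosome, were alike on the ob/ob pair (2.33 and 2.21, and 8.60 and 8.62).

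**Figure D3:**
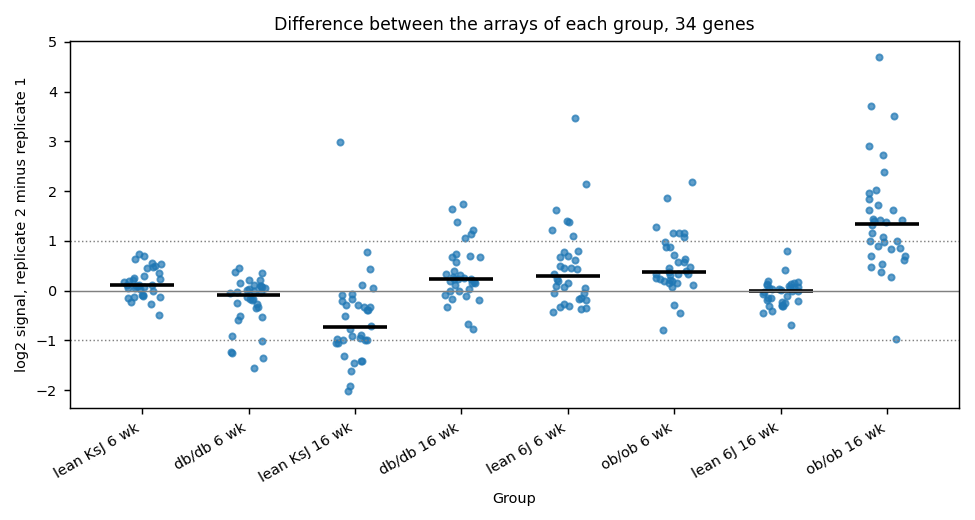
Each point is 1 of the 34 genes, placed at its log2 signal on replicate 2 minus that on replicate 1 within the group named on the x axis; the thick line is the median and dotted lines mark a difference of 1. The 16-week ob/ob points have a median of 1.34 and reach 4.69, and those of 16-week lean KsJ islets have a median of -0.74.

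Without ob/ob 16-week replicate 2 the comparison with lean 6J islets turned. The number of members above lean islets went from 25 to 7 of 34, the median went from 0.30 to -0.40 (all genes -0.02, with 47.9% above), and 18 members changed sign. Bst2 went from 1.42 to -0.04, Irf7 from 1.34 to -0.51 and Ifit1 from 0.36 to -1.99. Mx2 (0.75), Oas2 (0.41) and Usp18 (0.67) kept their sign. The remaining array is a single sample whose spread is taken from the other groups in that fit.

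**Figure D4:**
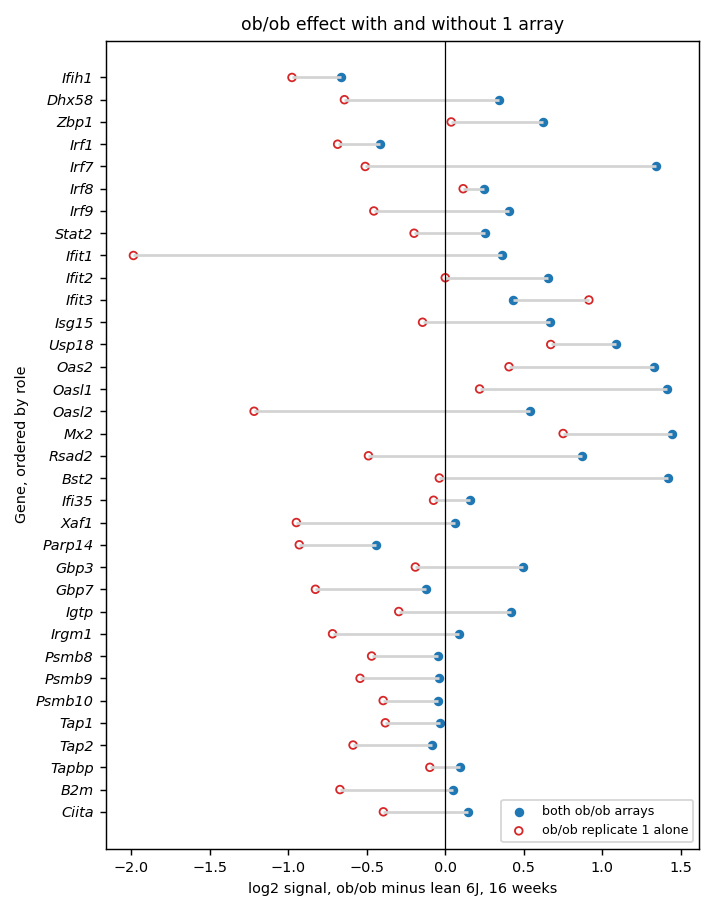
Points give the log2 signal of ob/ob minus lean 6J islets at 16 weeks for each of the 34 genes with both ob/ob arrays (filled) and with ob/ob replicate 1 alone (open). The median moved from 0.30 to -0.40.

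Smaller shifts of the same genes appeared on other arrays. In 6-week ob/ob islets replicate 1 was the low array: Ifit1 was at 3.70 and Oasl2 at 4.87, against 5.88 and 6.74 on replicate 2, and 7 members lay 1 or more higher on replicate 2 (2.35% of all genes). In 16-week db/db islets 6 members lay 1 or more higher on replicate 2 (3.81%), led by Irf7 at 6.36 against 4.61. In 16-week lean 6J islets no member differed by 1 or more in either direction (0.412% of all genes higher and 0.67% lower).

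Lean 6J 6-week replicate 2 held the highest of the 16 values for 10 members, against 7.7% of all genes. There Zbp1 was at 6.36 against 2.90 on replicate 1, Oasl1 at 5.61 against 3.47, B2m at 11.94 against 10.32, Irf8 at 5.56 against 4.17 and Psmb10 at 8.76 against 7.37. In all, 7 members lay 1 or more above replicate 1 (4.41% of all genes). Besides enterocyte genes, that array had a T and NK cell mean of 4.17 against 2.81 and a B and plasma cell mean of 4.40 against 3.18. Irf8 was above 5 on 2 other arrays of the table, at 5.25 on lean KsJ 6-week replicate 2 and 5.19 on db/db 6-week replicate 1. The T and NK cell means of these arrays were 3.79 and 4.41 and their B and plasma cell means 4.09 and 4.13, above those of the other arrays of the larger table apart from lean 6J 6-week replicate 2. On db/db 6-week replicate 1 Ciita was at 4.77 against 3.22 on replicate 2 and Igtp, an immunity-related GTPase, at 6.39 against 5.04. The part of these cell types in the values was not tested.

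Lean KsJ 16-week replicate 2, the array with the most acinar signal, held the lowest value for 15 of the 34 members, and for 34.4% of all genes. Parp14, a mono-ADP-ribosyltransferase, was at 4.73 against 6.75 on replicate 1, Tap2 at 4.11 against 6.02 and Igtp at 4.81 against 6.43, and 10 members lay 1 or more below (9.62% of all genes). Psmb10, another catalytic subunit of the immunoproteasome, went the other way, at 9.93 against 6.93. It was at 6.93 to 8.76 on the other 15 arrays. The lean array of the smaller table, with an acinar mean of 13.02, had Psmb10 at 8.38, and its db/db partner, at 12.15, had 7.55. The part of the acinar genes was not tested. Without that lean array 14 rather than 18 members lay above lean islets in the 16-week db/db comparison, and the median moved from 0.07 to -0.27 (all genes 0.16).

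The calls among the members came from the comparison of the lean strains. At 16 weeks 2 members were lower in KsJ than in 6J islets with a limma adjusted p below 0.05, where 4.12% of all genes were called. The all-gene calls were 73 higher and 566 lower as deposited, 39 and 109 under quantile normalization, and 122 and 84 under median centring. Ifih1 was at 6.83 and 5.82 in lean KsJ islets and 7.76 and 7.83 in lean 6J islets, a difference of -1.47 ± 0.33 (adjusted p = 0.0373). Tapbp was at 8.65 and 8.32 against 9.28 and 9.27, a difference of -0.79 ± 0.18 (adjusted p = 0.041). In neither gene did the arrays overlap. Both calls were lost without lean KsJ 16-week replicate 2, where the differences were -0.97 and -0.63, and under quantile normalization or median centring. As single arrays were left out, 0 to 11 members were called, 11 of them without lean KsJ 16-week replicate 1. Acinar markers were higher in lean KsJ islets at 16 weeks for 10 of 10 genes, with a median of 2.01 and 2 called, and their part was not tested. At 6 weeks Ifih1 was at 7.16 and 7.05 against 7.69 and 8.14 (-0.81 ± 0.33, adjusted p = 0.688) and Tapbp differed by -0.22 ± 0.18, with 0.258% of all genes called and no member. At an unadjusted limma p below 0.05 there were 4 members at 6 weeks (6.65% of all genes) and 5 at 16 weeks (29.5%).

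Over the 34 members 9 were higher in lean KsJ islets at 16 weeks, with a median of -0.45 against -0.25 for all genes (31.1% higher). For 19 members both KsJ arrays lay below both 6J arrays (44.3% of all genes), and for 5 above (11.2%). The median of all genes moved to -0.07 under quantile normalization and to 0.12 under median centring, and the number of higher members to 8 and 15, while the member median stayed below 0, at -0.32 and -0.084. At 6 weeks 13 were higher with a median of -0.21 (all genes 0.04, 55.3% higher), with 6 members wholly above (26.2%) and 11 wholly below (17.8%).

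Bst2 was the 1 member whose 8 KsJ arrays all lay to the same side of the 8 arrays of 6J mice, obese and lean together, a pattern shown by 0.644% of all genes in this direction and 0.271% in the other. On the KsJ arrays it was at 4.54 and 4.31 (lean) and 4.94 and 4.91 (db/db) at 6 weeks, and at 3.95 and 3.57 (lean) and 3.48 and 4.53 (db/db) at 16 weeks. On the 6J arrays it was at 6.07 and 5.64 (lean) and 5.74 and 6.07 (ob/ob) at 6 weeks, and at 5.85 and 5.97 (lean) and 5.87 and 8.78 (ob/ob) at 16 weeks. Between lean strains the difference was -1.43 ± 0.69 at 6 weeks (adjusted p = 0.763) and -2.15 ± 0.69 at 16 weeks (adjusted p = 0.0844), so neither passed the test. The lean and db/db arrays of the smaller table were both at 5.14, between these ranges, on another array design.

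Gbp7, a guanylate-binding protein that helps produce oxidants against microbes, was at 6.12, 6.66, 6.63 and 5.64 in lean KsJ islets and at 7.83, 7.68, 7.63 and 7.76 in lean 6J islets, at 6 and then 16 weeks. Every lean KsJ array lay below every lean 6J array, with differences of -1.37 ± 0.50 (adjusted p = 0.617) and -1.56 ± 0.50 (adjusted p = 0.0829). The 16-week difference was -1.07 without lean KsJ 16-week replicate 2. Both lean KsJ arrays lay below both lean 6J arrays for 17.8% of all genes at 6 weeks and 44.3% at 16 weeks. The share of all genes with this pattern over both ages was not counted. Ifi35, which binds Nmi and modulates the response, differed by -0.80 ± 0.24 at 16 weeks (adjusted p = 0.0755). Xaf1, a pro-apoptotic zinc finger protein, lay higher in the lean KsJ islets, at 6.13, 6.69, 6.09 and 5.32 against 5.0, 5.08, 4.98 and 4.78. Its differences were 1.37 ± 0.52 (adjusted p = 0.667) and 0.82 ± 0.52 (adjusted p = 0.302). Both lean KsJ arrays lay above both lean 6J arrays for 26.2% of all genes at 6 weeks and 11.2% at 16 weeks. In the larger set 1 code in the sample titles marks all KsJ arrays and another all 6J arrays, so strain and whatever the codes mark cannot be told apart.

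**Figure D5:**
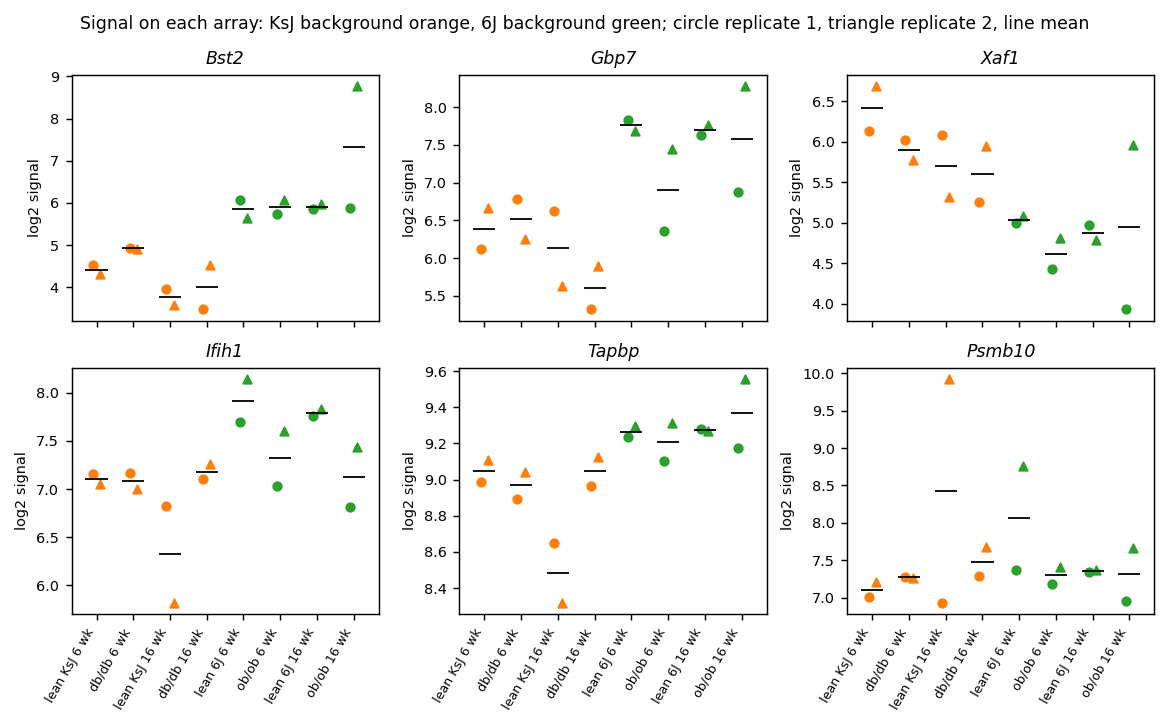
Log2 signals of 6 genes are plotted for the 16 arrays, with KsJ groups in orange, 6J groups in green, circles for replicate 1, triangles for replicate 2 and a line at each group mean; the vertical scales differ between panels. Bst2 lies at 3.48 to 4.94 on KsJ arrays and 5.64 to 8.78 on 6J arrays, and Psmb10 reaches 9.93 on 1 lean KsJ array.

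With age, no member passed the test in any group, where the share of all genes called was 0.0644% in db/db islets and 0% in ob/ob, lean KsJ and lean 6J islets. At an unadjusted limma p below 0.05 there were 0 members in db/db islets (7.61% of all genes), 2 in ob/ob islets (3.9%), 3 in lean KsJ islets (26.3%) and 1 in lean 6J islets (2.87%). In ob/ob islets 30 of 34 members were higher at 16 weeks, with a median of 0.66 against -0.01 for all genes (48.4% higher). Without ob/ob 16-week replicate 2 this was 11 of 34 with a median of -0.15. Both 6-week ob/ob arrays had the Y-linked Uty high (mean 7.43) and both 16-week arrays had it low (2.27) and Xist high, so age and sex cannot be told apart here. In lean KsJ islets 6 of 34 were higher with a median of -0.38 (all genes -0.26, 28.4% higher), and without lean KsJ 16-week replicate 2 it was 15 with a median of -0.06. Under quantile normalization 9 were higher with a median of -0.33 (all genes -0.09, 40.8% higher). Under median centring 15 were higher with a median of -0.016 (all genes 0.10, 60.5% higher). Ifi35 was at 6.93 and 7.15 at 6 weeks and 6.12 and 5.91 at 16 weeks in lean KsJ islets, a difference of -1.03 ± 0.24 (adjusted p = 0.0853). In lean 6J islets 12 of 34 were higher (57.1% of all genes), and in db/db islets 14 of 34 (47.9%).

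The difference between the models' obese minus lean effects, tested as an interaction, called no member at 16 weeks (0.0129% of all genes) or 6 weeks (0%), and neither did the change of either effect with age (0.00644% of all genes for db/db and 0% for ob/ob). At an unadjusted limma p below 0.05 there were 4 and 1 members for the models (15.6% and 2.25% of all genes) and 2 and 1 for the changes with age (13.1% and 2.77%). At 16 weeks the db/db effect was above the ob/ob effect for 11 of 34 members (67.7% of all genes), with a median of -0.32 where all genes had 0.25. Without ob/ob 16-week replicate 2 it was above for 26, with a median of 0.51. Oas2 (-1.57), Mx2 (-1.57) and Ifit2 (-1.33) lay toward the ob/ob side and Ifih1 (1.52) toward the db/db side, with adjusted p of 0.295, 0.242, 0.307 and 0.206. Without ob/ob 16-week replicate 2 these differences were -0.65, -0.87, -0.67 and 1.83. The 16-week db/db effect of Ifih1 went from 0.86 to 0.36 without lean KsJ 16-week replicate 2. That of Oas2 then went from -0.24 to -0.50, that of Mx2 from -0.12 to -0.32 and that of Ifit2 from -0.67 to -1.03. At 6 weeks the db/db effect was above for 21 of 34 members (45% of all genes). The effect was higher at 16 than at 6 weeks for 21 members in db/db (68.2%) and 32 in ob/ob islets (44.9%), and for 18 in ob/ob islets without ob/ob 16-week replicate 2.

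The pair of the smaller table, 1 lean KsJ and 1 db/db array of 16 weeks, had no replicates and was not tested. The db/db array was higher for 27 of 34 members, with a median difference of 0.48, against 56.6% of all genes and a median of 0.09. The difference was 1 or more for 1 member, B2m at 11.31 against 10.15, where 5.98% of all genes were as far apart. Ifih1 was at 7.35 against 6.36 and Tapbp at 9.03 against 8.09, both higher on the db/db array as on the 16-week db/db arrays of the larger table. Usp18 was at 7.16 against 6.34. Oas2 lay the other way, at 3.70 against 4.63, as did Psmb10. The enterocyte mean was 9.57 on the db/db array and 4.02 on the lean one, and its part in these values was not tested.

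Other genes of the pathway were counted in lists of ligands, receptors, sensing, feedback, further induced genes, antigen processing and the constitutive proteasome. In 16-week db/db islets 5 of their genes were called higher and none lower. These are 5.38% of the 93 list genes tested, near the 5.8% of all genes called. The all-gene calls were 826 higher and 74 lower as deposited, 232 and 51 under quantile normalization, and 126 and 137 under median centring. Whether the 5 calls hold under those scalings was not tested. From the 9 receptors and kinases tested, Ifnar2, a chain of the type I interferon receptor, was at 8.83 and 9.05 against 7.71 and 8.04 in lean islets, a rise of 1.07 ± 0.23 (adjusted p = 0.0287). From the 33 other interferon-stimulated genes tested, Lgals3bp, a secreted glycoprotein that binds galectins, rose by 1.42 ± 0.18 (adjusted p = 0.0102). From the 14 antigen processing genes tested, Lgmn, the lysosomal protease legumain, rose by 1.97 ± 0.26 (adjusted p = 0.0102) and Tapbpl, a peptide editor related to tapasin, by 1.55 ± 0.39 (adjusted p = 0.0433). From the 13 constitutive proteasome genes tested, Psmb4 rose by 0.82 ± 0.20 (adjusted p = 0.0379). Without lean KsJ 16-week replicate 2 the difference was 0.75 for Tapbpl and 0.57 for Psmb4. It was then 1.23 for Ifnar2, 1.30 for Lgals3bp and 1.83 for Lgmn. Of the 6 ligands, 11 sensing genes and 7 feedback regulators tested none was called.

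Between lean strains at 16 weeks 2 of these genes were lower in KsJ islets, Lgals3bp (-1.06 ± 0.18) and Rfxank (-1.21 ± 0.21), a subunit of the factor that binds class II promoters, each with an adjusted p of 0.018. These are 2.15% of the 93 list genes, against 4.12% of all genes. None of the listed genes was called in 16-week or 6-week ob/ob islets against lean, in 6-week db/db islets, with age, or between lean strains at 6 weeks. Lgals3bp is therefore called in both comparisons that share the 16-week lean KsJ arrays, where its mean was 10.69, against 12.11 in db/db and 11.74 in lean 6J islets.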

How the data were processed

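RNA of mouse islets was hybridised to Affymetrix Mouse Gene ST arrays, 16 in a larger table and 2 in a smaller one. The deposited values are log2 signals per transcript cluster, normalized by the authors, and their scale and centring are not stated. Per the submitters' processing notes, RMA, MAS5 and Partek were used, with no version or role for any of them, and background correction is not given in the sources used here. Of the 41034 clusters in a table, the annotation named 1 gene for 23521, several for 1814 and none for 15699. Only the first kind was used, with symbols updated to RefSeq (GRCm38.p6) for 23328. A gene with more than 1 cluster was represented by the one of highest mean signal, which left 22180 genes, and genes under the 30th percentile of the mean (2.99) were removed.

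The remaining 15526 genes were fitted with limma 3.58.1 (R 4.3.3), using group means over all 16 arrays, 8 residual degrees of freedom and eBayes moderation. P-values are two-sided and Benjamini-Hochberg adjusted over all 15526 genes. The fit was tested on simulated data. The 2 arrays of the smaller table were compared without a test. The members and lists were chosen with earlier results of these data known. Called members, up to 2 others per role with the smallest p, and called genes of the pathway lists were to be named, and further members were named after their values were seen. Alternatives were other filters, median centring, quantile normalization, array weights, changed variance moderation, averaging a gene's clusters, the compared groups alone, joined tables, a term for Xist, acinar and enterocyte covariates, and arrays left out. The number of arrays limits the precision. Plots used Python 3.11.15 with matplotlib 3.10.9.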

Additional observations from a re-analysis of the deposited data

Results flagged for a closer look

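For 4 members the obese arrays lay wholly above the lean arrays in 1 setting and wholly below them in another, which marked them for a closer look. The share of all genes with such a pattern was not counted, so the count is no result about the members. In single obese against lean comparisons, 10.4% to 33.3% of all genes lay wholly to a given side. None of the differences passed the limma test of the interaction. Ifih1, the double-stranded RNA sensor, differed by 0.86 in db/db and -0.67 in ob/ob islets at 16 weeks, and the difference between the models was 1.52 (adjusted p = 0.206). The db/db value was 0.36 without lean KsJ 16-week replicate 2. Irf8 differed by -0.19 and 0.25 in the same comparisons, with a difference of -0.43 (adjusted p = 0.74). In db/db islets Dhx58 went from -0.63 at 6 weeks to 0.16 at 16 weeks, a change of 0.80 (adjusted p = 0.563). Ifi35 went from -0.40 to 0.49, a change of 0.89 (adjusted p = 0.366). The 16-week db/db values share the lean KsJ array rich in acinar genes, whose part was not tested.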

How the results depend on the processing

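The absence of calls among members held under every alternative for 6-week db/db islets and, apart from single arrays left out, for 6-week ob/ob islets; 2 members were called in 16-week db/db islets with both tables joined and 4 in 16-week ob/ob islets with array weights (Ifih1, Mx2, Oas2 and Usp18). The 2 calls between lean strains at 16 weeks became 1 without a filter, without variance moderation or with the mean over clusters, 4 with both tables joined, and 0 under quantile normalization, median centring, array weights, acinar and enterocyte covariates, without the 3 arrays rich in acinar or enterocyte genes (lean KsJ 16-week replicate 2, lean 6J 6-week replicate 2 and db/db 16-week replicate 2), or with the compared groups alone. The cause was not tested. The acinar and enterocyte covariates moved the member median to -0.32 (6-week db/db against lean), 0.16 (db/db with age), 0.24 and 0.065 (lean strains at 6 and 16 weeks) and -0.17 (model difference at 6 weeks). For the lean strains at 6 weeks the 50th percentile filter gave -0.32, and leaving out the 3 arrays 0.022. For the change of the db/db effect with age it was -0.087 under median centring and -0.24 without the 3 arrays. In 6-week ob/ob islets Irf8 (0.031) and Zbp1 (0.036) changed sign with the covariates, and Zbp1 (0.25) without the 3 arrays.

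With single arrays left out, called members ranged from 0 to 6 for 16-week db/db islets (6 without lean KsJ replicate 1) and for the change of the db/db effect with age, 0 to 10 for lean KsJ islets with age, 0 to 11 for lean strains at 16 weeks (11 without lean KsJ replicate 1), 0 to 4 for the 16-week model difference, and 0 to 1 for 6-week ob/ob islets, lean 6J islets with age, lean strains at 6 weeks, the 6-week model difference and the change of the ob/ob effect with age (Zbp1, without lean 6J 6-week replicate 1). Medians ranged from -0.23 to 0.055 for 6-week db/db islets, -0.15 to 1.28 for ob/ob islets with age, -0.30 to 0.022 for lean strains at 6 weeks, -1.07 to 0.51 for the 16-week model difference and 0.021 to 1.38 for the change of the ob/ob effect with age. Single members that changed sign ranged from -0.038 to 2.87 (Bst2), -0.19 to 1.18 (Gbp3) and -0.050 to 0.91 (Ifit3) in 16-week ob/ob islets, -0.22 to 1.33 (Ciita) in 6-week db/db islets and -3.2 to 0.25 (Zbp1) in 6-week ob/ob islets. No paired analysis was possible because the sample titles carry no replicate numbers shared between groups. Signal near background limits the dim members: Mx1 and Nlrc5 lay below the filter at 2.99. Among tested members Zbp1, Ifit2, Ciita, Mx2, Gbp3 and Oas2 were also dim, with means over the 16 arrays of 3.53 to 3.96.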
